A study of Mus musculus with 39 samples.

Results

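Dcpp1, Dcpp2, Dcpp3, Trpm3 and Susd5 are 5 genes that were close to silent or low in PB2 mouse breast tumors at day 10 after implantation and higher at day 22. They were chosen by their measured rise from day 10 to day 22 in tumors of both constructs, so the difference with time is given as a description, without a test. They are 5 of the 20520 genes in the table, and all 5 were among the 13650 genes tested, which needed at least 1 CPM (read of the gene per 1000000 reads) in at least 9 libraries. Each of the 5 can pass that filter through its day 22 libraries alone.

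The tumors were grafts of PB2 cells that carried 1 of 2 forms of the receptor tyrosine kinase HER2. FL-HER2 is the full-length receptor, and p95HER2 is a truncated form that lacks most of the extracellular domain. Poly(A) RNA was sequenced from 10 FL-HER2 tumors and 10 p95HER2 tumors at day 10, and from 9 FL-HER2 and 10 p95HER2 tumors at day 22. No tumor without a construct was analysed here, and all groups share the PB2 background. The labels do not say which promoter drives the construct, whether a line is 1 clone, which host strain was used or whether each library is 1 animal, so p-values measure the spread between these libraries, which may in part be technical.

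Depth ran from 21772259 to 44427621 reads per library. Mammary epithelial genes were expressed in every group, with Elf5, a transcription factor of alveolar cells, at mean levels from 42.2 to 63.8 CPM. The summed level of basal epithelial genes had group medians from 349 to 794 CPM. That of luminal hormone-sensing genes had group medians from 306 to 442 CPM. Genes of muscle and skin varied between libraries. Skeletal muscle genes took medians of 1.72% (FL-HER2) and 0.0238% (p95HER2) of all reads at day 10 and of 0.227% and 0.234% at day 22, and 11 libraries spread over all 4 groups stood high in skin genes (mean log2 value of at least 7). In 8 of the 10 FL-HER2 day 10 libraries the number in the column name has 5 digits, against 3 digits in the other libraries, and for replicate 8 of that group the title gives a different number from the column name.

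Dcpp1, Dcpp2 and Dcpp3 encode demilune cell and parotid proteins, small secreted proteins of the mouse salivary glands that are related to jacalin-like lectins. Trpm3 encodes a calcium-permeable cation channel of the TRP family, which opens on heat and on the neurosteroid pregnenolone sulfate and is best known from sensory neurons. Susd5 encodes a membrane protein with a sushi domain and a Link module, a fold that binds the matrix polysaccharide hyaluronan in other proteins.

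The 3 Dcpp genes lie side by side on chromosome 17 (GRCm38, GENCODE M21 annotation), all on the plus strand. Dcpp1 spans 23880876 to 23882853, Dcpp2 spans 23880880 to 23900788 and Dcpp3 spans 23917458 to 23919441. One annotated Dcpp2 transcript starts inside the first exon of Dcpp1, and the exons of Dcpp1 and Dcpp2 share 30 bases. Their coding sequences were 93.8% identical between Dcpp1 and Dcpp2, 93.2% between Dcpp1 and Dcpp3 and 95.3% between Dcpp2 and Dcpp3. Bases 274 to 363 of the Dcpp1 coding sequence and the matching stretches of the other genes are shown because they hold 20 of the 43 positions at which the genes differ. Capitals mark those positions.
Dcpp1: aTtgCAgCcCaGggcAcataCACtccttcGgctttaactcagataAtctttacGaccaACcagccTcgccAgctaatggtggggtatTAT
Dcpp2: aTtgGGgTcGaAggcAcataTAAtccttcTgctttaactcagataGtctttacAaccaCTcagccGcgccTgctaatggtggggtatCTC
Dcpp3: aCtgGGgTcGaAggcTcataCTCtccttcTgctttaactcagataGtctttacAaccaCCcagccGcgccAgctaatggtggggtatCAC

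Of all 50-base words in each gene's main transcript, 56.7% for Dcpp1, 69.4% for Dcpp2 and 63.5% for Dcpp3 were found in none of the other 2. A read can therefore fall on a stretch that the genes share, and the sources used here do not say how such reads were counted. The division of reads among the 3 genes is uncertain for this reason, and their sum is given beside them.

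The promoters of the 3 Dcpp genes were nearly alike as well. They are shown because the 3 genes moved together, and the 120 bases before each start come from RefSeq (GRCm38.p6, plus strand). They lie at chr17:23880756-23880875 for Dcpp1, chr17:23898602-23898721 for Dcpp2 and chr17:23917338-23917457 for Dcpp3. Capitals mark the hexamer TATAAG, a variant of the TATA box.
Dcpp1 promoter: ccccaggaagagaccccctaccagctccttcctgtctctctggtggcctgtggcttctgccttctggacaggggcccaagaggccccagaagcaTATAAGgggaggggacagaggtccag
Dcpp2 promoter: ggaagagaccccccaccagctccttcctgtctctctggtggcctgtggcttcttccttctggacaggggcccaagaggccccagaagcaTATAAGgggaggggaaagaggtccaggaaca
Dcpp3 promoter: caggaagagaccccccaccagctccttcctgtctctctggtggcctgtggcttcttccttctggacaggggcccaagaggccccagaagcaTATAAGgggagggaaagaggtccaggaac

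TATAAG began 26, 31 and 29 bases before the start of Dcpp1, Dcpp2 and Dcpp3. Of 32851 promoter windows in RefSeq, 7.43% held TATAAG on either strand, and 0.956% held it on the gene's own strand beginning 40 to 21 bases before the start. The Susd5 window held it once, 91 bases before the start, and both Trpm3 windows lacked it. TATAAA, searched on both strands, was in none of the members' windows and in 13.6% of all windows. These matches describe letters only.

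Dcpp1 was at the edge of detection at day 10. In FL-HER2 tumors it ran from 0.116 to 0.537 CPM with a median of 0.360 CPM (4 to 19 reads), and in p95HER2 tumors from 0.0284 to 0.771 CPM with a median of 0.257 CPM (1 to 28 reads). At day 22 the lowest, median and highest FL-HER2 libraries held 2.73, 9.63 and 99.6 CPM, and the p95HER2 libraries 3.82, 10.4 and 20.1 CPM. Every day 22 library of a construct lay above every day 10 library of that construct, which was so for 2.78% of all genes tested in FL-HER2, 2.68% in p95HER2 and 0.93% in both. The genes were chosen on this contrast, so nothing is read from those shares. The mean was 26.6 ± 31.1 CPM (SD, n = 9) in FL-HER2 and 11.8 ± 6.89 CPM (SD, n = 10) in p95HER2 tumors at day 22, against 0.317 ± 0.140 CPM (SD, n = 10) and 0.301 ± 0.213 CPM (SD, n = 10) at day 10.

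Dcpp3 followed the same course at a like level. Day 10 libraries held 0.0579 to 0.826 CPM in FL-HER2 tumors (median 0.279 CPM) and 0 to 0.964 CPM in p95HER2 tumors (median 0.321 CPM). At day 22 they held 3.51 to 129 CPM in FL-HER2 (median 12.7 CPM) and 4.07 to 28.4 CPM in p95HER2 tumors (median 11.3 CPM). The days did not overlap in either construct.

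Dcpp2 was the lowest of the 3. It had no read in 4 of the 10 FL-HER2 and 4 of the 10 p95HER2 libraries at day 10, where a count of 0 allows up to 0.0884 and 0.0974 CPM (3 reads, counting error only), and at most 8 reads in the others. At day 22 it ran from 0.289 to 32.9 CPM in FL-HER2 tumors (median 3.21 CPM) and from 0.948 to 9.51 CPM in p95HER2 tumors (median 3.73 CPM). The days came closest in FL-HER2 Dcpp2, where the lowest day 22 library was 1.23-fold above the highest day 10 library. That day 22 library, replicate 9, held only 7 Dcpp2 reads.

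The ratio of mean CPM between day 22 and day 10 was 83.9 for Dcpp1, 93.8 for Dcpp2 and 89.1 for Dcpp3 in FL-HER2 tumors, and 39.2, 70.8 and 37.6 in p95HER2 tumors. The FL-HER2 ratios rest in part on replicate 7 of day 22, the highest library for all 3 genes. Without it they were 55.0, 47.9 and 52.8. The ratios of medians were 26.7, 47.2 and 45.4 in FL-HER2 and 40.4, 67.1 and 35.2 in p95HER2 tumors. On the log2 scale of the deposited values, log2(normalized count + 1), the differences were 5.48 ± 0.48 (SE), 5.22 ± 0.61 and 5.57 ± 0.56 in FL-HER2 and 5.10 ± 0.47, 5.31 ± 0.59 and 5.26 ± 0.54 in p95HER2 tumors, and that scale understates the change of genes near 0. Over all genes tested the median log2 difference with time was -0.03 in FL-HER2 and 0.00 in p95HER2 tumors.

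**Figure D1:**
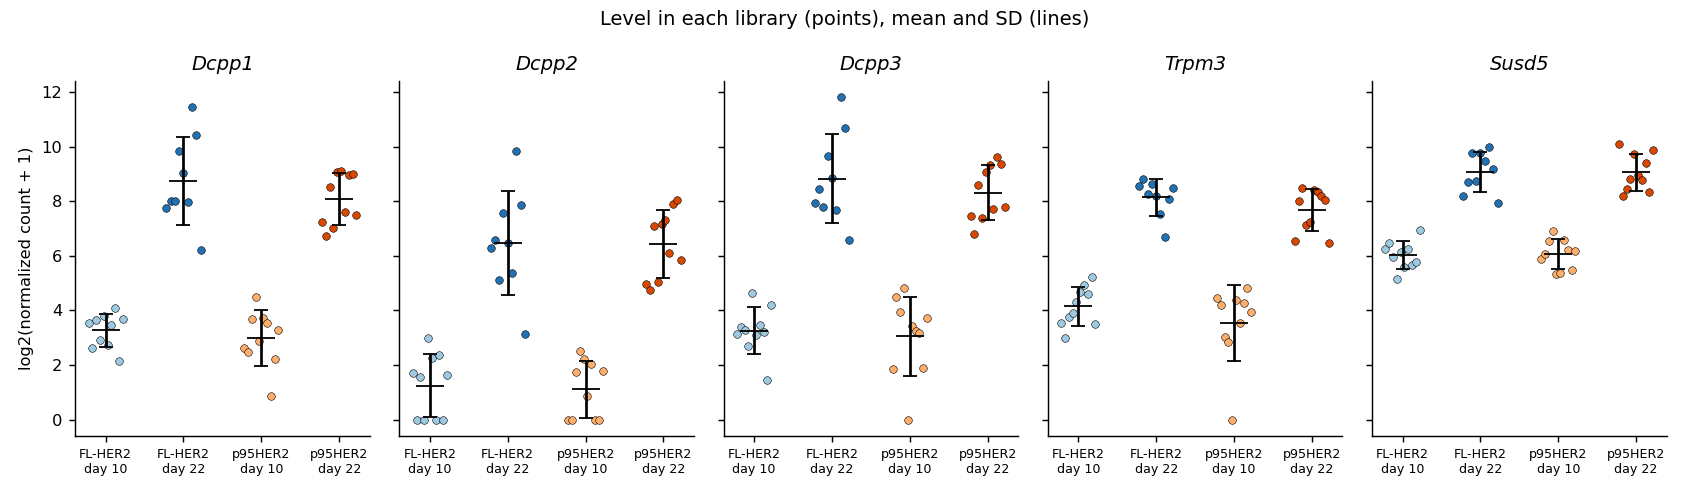
Deposited log2(normalized count + 1) of each gene in every library (points) with the group mean and SD (lines), for FL-HER2 and p95HER2 tumors at day 10 and day 22 (n = 10, 9, 10 and 10). For each of the 5 genes, all day 22 libraries of a construct lie above all its day 10 libraries. The genes were chosen by this rise, and the same held in both constructs for 0.93% of all genes tested.

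Trpm3 was also low at day 10, at 0.227 to 1.22 CPM in FL-HER2 tumors (median 0.540 CPM, at most 42 reads) and 0 to 0.935 CPM in p95HER2 tumors (median 0.556 CPM, at most 30 reads). At day 22 it ran from 3.66 to 16.7 CPM in FL-HER2 (median 11.4 CPM) and from 3.20 to 13.4 CPM in p95HER2 tumors (median 9.33 CPM). It varied less at day 22 than the Dcpp genes did in FL-HER2 tumors, with 4.56-fold between the highest and the lowest library against 36.5-fold for Dcpp1, and the days did not overlap. The ratio of means was 17.7 in FL-HER2 and 16.9 in p95HER2 tumors (log2 difference 4.0 ± 0.42 and 4.14 ± 0.41, SE). Trpm3 lies on chromosome 19 from 22139046 to 22995410 on the plus strand and has 24 annotated transcripts, and the table does not tell which of them was read.

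Susd5 differed from the others in its higher CPM at day 10, a measure that does not correct for transcript length. Its lowest FL-HER2 library still lay below the highest Trpm3 value of that group (1.22 CPM). At day 10 it ran from 1.06 to 4.42 CPM in FL-HER2 tumors (median 2.14 CPM) and from 1.30 to 4.21 CPM in p95HER2 tumors (median 2.41 CPM). Day 22 libraries held 9.0 to 36.4 CPM (median 20.7 CPM) and 10.7 to 40.4 CPM (median 17.3 CPM), with no overlap between the days. The ratio of means was 9.58 and 8.84 (log2 difference 3.07 ± 0.27 and 3.01 ± 0.27, SE). It lies on chromosome 9 from 114057140 to 114098728, plus strand.

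Per kilobase of the longest transcript, the day 22 means in FL-HER2 and p95HER2 tumors were 44.8 and 20.9 CPM for Dcpp3, 43.0 and 19.1 for Dcpp1, 9.72 and 6.08 for Dcpp2, 5.37 and 5.30 for Susd5, and 0.901 and 0.679 for Trpm3. Dcpp3 and Dcpp1, next to each other in that order, differed by less than their spread (SD 60.1 and 50.4 in FL-HER2, 13.2 and 11.2 in p95HER2). Dcpp2 and Susd5 also lay within it. Trpm3, the longest of the 5, was lowest on this scale. The day 10 means in FL-HER2 and p95HER2 tumors were alike for Susd5 (0.561 and 0.600), Dcpp1 (0.513 and 0.489) and Dcpp3 (0.503 and 0.557). They were lower for Dcpp2 (0.104 and 0.0859) and Trpm3 (0.0510 and 0.0402). In whole tumor RNA, more cells that express a gene and more RNA per cell cannot be told apart.

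Muscle and skin genes were set beside these differences. Without the 11 skin-high libraries the log2 differences with time were 4.69 to 5.34 for the Dcpp genes, 4.20 for Trpm3 and 3.10 for Susd5 in FL-HER2 tumors, and 4.84 to 5.72, 4.70 and 3.14 in p95HER2 tumors. Adjusted for muscle genes (mean log2 value as a covariate) they were 5.23 to 5.47, 4.17 and 2.76, and 5.10 to 5.31, 4.13 and 3.03.

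By the smaller of the log2 differences in both constructs, the 3 Dcpp genes and Trpm3 held ranks 1 to 4 of 13650 genes and Susd5 rank 7. Only 7 genes rose by at least 3 log2 units in both constructs, 24 by at least 2 and 108 by at least 1. Genes that fell are not in these counts. Gjc3, a gap junction gene of myelinating cells, was between Trpm3 and Susd5 with 4.05 and 3.77, as was the zinc transporter gene Slc30a2 with 3.28 and 3.08. Rps6kl1, a kinase-like gene, came just below Susd5 with 2.92 and 3.60. In the contrasts that chose the members, 20.7% of all genes were called higher at day 22 in FL-HER2 and 16.6% in p95HER2 tumors (limma adjusted p under 0.05), and nothing is read from these shares about the members.

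**Figure D2:**
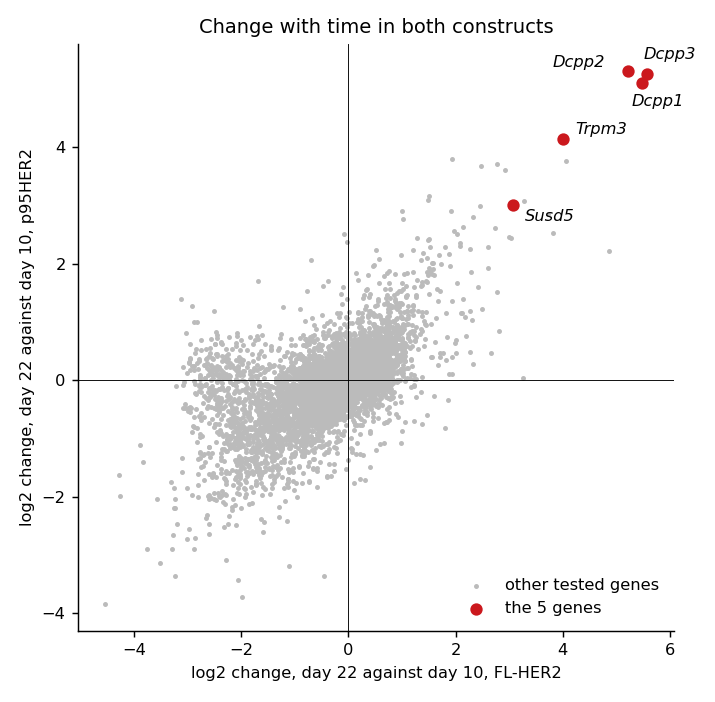
Log2 change from day 10 to day 22 in FL-HER2 tumors (x axis) against p95HER2 tumors (y axis) for the 13650 genes tested (grey), with the 5 genes in red. The 3 Dcpp genes lie together at the upper right, and Trpm3 and Susd5 lie between them and the bulk of the genes.

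Whether the receptor form altered these genes was asked by comparing p95HER2 with FL-HER2 tumors at each day. The genes were not chosen by this comparison, but the rises that chose them rest on the same 4 groups of values. The comparison is therefore not fully independent of the choice. No member was called at day 10. Trpm3 had a mean of 0.495 ± 0.279 CPM in p95HER2 and 0.628 ± 0.323 CPM in FL-HER2 tumors (SD, n = 10 each) and a log2 change of -0.60 (95% interval -1.42 to 0.23, limma adjusted p = 0.243). Leaving out 1 library at a time, that change ran from -0.74 to -0.20, the latter without p95HER2 replicate 5, which had no Trpm3 read. Dcpp1, Dcpp2, Dcpp3 and Susd5 had log2 changes of -0.28, -0.14, -0.20 and 0.04 (limma adjusted p from 0.653 to 0.921). The count of 0 of 5 stands beside 41.3% of all genes called at day 10, and none of the 5 had an unadjusted limma p under 0.05.

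At day 22 no member was called either, beside 4.52% of all genes. Dcpp1 had a log2 change of -0.66 (95% interval -1.64 to 0.31, limma adjusted p = 0.508) and Dcpp3 of -0.51 (-1.63 to 0.62, adjusted p = 0.689), while their medians differed little between the constructs. Trpm3 had -0.46 (-1.30 to 0.39, adjusted p = 0.616). Dcpp2 had -0.05 (-1.27 to 1.18, adjusted p = 0.980) and Susd5 -0.02 (-0.57 to 0.54, adjusted p = 0.984). These intervals leave room for a change of more than 2-fold in the Dcpp genes and Trpm3, and for Susd5 they run from 0.673-fold to 1.45-fold. No member had an unadjusted p under 0.05, and the exact rank-sum test called none at either day.

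The p95HER2 effect at day 22 less that at day 10 is given as a description, without a test, since the rises in both constructs that chose the genes also set this value. It was -0.38 for Dcpp1, 0.09 for Dcpp2, -0.31 for Dcpp3, 0.14 for Trpm3 and -0.05 for Susd5 on the log2 scale. The 95% intervals were wide for Dcpp2 (-1.62 to 1.80) and narrowest for Susd5 (-0.83 to 0.72). Under quantile normalization the calls over all genes shifted from 2071 higher and 3565 lower to 3863 and 2279 at day 10 and from 2830 and 4181 to 4974 and 2979 for time in FL-HER2 tumors, while still no member was called in the construct contrasts at day 10 or day 22.

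**Figure D3:**
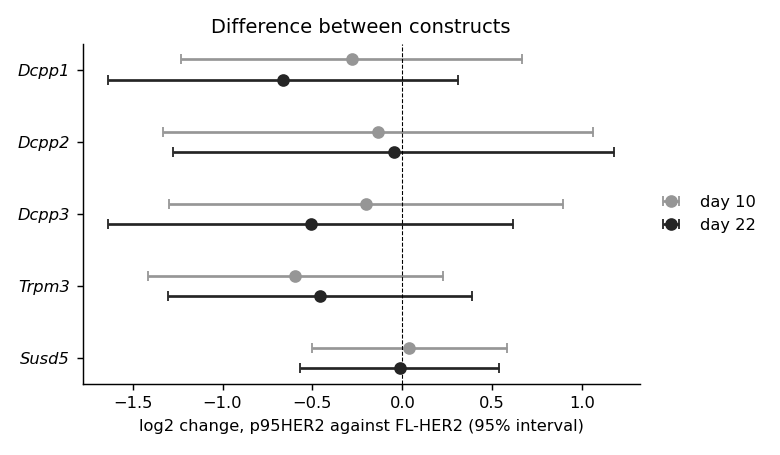
Log2 change of p95HER2 against FL-HER2 tumors for each gene at day 10 (grey) and day 22 (black), with 95% intervals from limma. Every interval includes 0, and those of Susd5 are the narrowest.

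How the genes varied among libraries of 1 group at day 22 was not used in their choice. The 3 Dcpp genes went up and down together. Pearson's r between pairs was 0.950 to 0.983 in FL-HER2 (n = 9) and 0.961 to 0.983 in p95HER2 tumors (n = 10), with Spearman's rho from 0.850 to 0.967 (permutation test, adjusted p over 20 relations from 0.000207 to 0.00107 for r and from 0.00120 to 0.0202 for rho). Without the 2 libraries farthest from the median r was 0.893 to 0.973, and the pair Dcpp1 and Dcpp2 in FL-HER2 no longer passed (permutation adjusted p = 0.0615). The part of shared reads in these relations was not tested. Dcpp1 took 44.1 ± 5.45% of the reads of the 3 genes in FL-HER2 and 40.1 ± 3.48% in p95HER2 tumors, Dcpp2 9.43 ± 3.40% and 12.8 ± 3.05%, and Dcpp3 46.5 ± 4.49% and 47.1 ± 2.72% (SD, n = 9 and 10).

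Their sum ran from 6.53 CPM in replicate 9 to 262 CPM in replicate 7 of FL-HER2 day 22, a span of 40.1-fold, and from 8.84 to 55.3 CPM in p95HER2 day 22. FL-HER2 replicate 7 was also the highest of its group for Susd5 and the lowest for Trpm3. It was the 1 library of that group that stood high in skin genes, and the part of that tissue in its Dcpp level was not tested.

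Trpm3 showed no relation with the Dcpp genes that passed the test. Its r with them was -0.57 to -0.50 in FL-HER2 and 0.42 to 0.53 in p95HER2 tumors (permutation adjusted p from 0.193 to 0.265). Between Trpm3 and Susd5 the values were negative, with r = -0.68 and rho = -0.72 in FL-HER2 (exact permutation adjusted p = 0.0888 and 0.105) and r = -0.74 and rho = -0.54 in p95HER2 tumors (permutation adjusted p = 0.0533 and 0.254). Neither passed, and without the 2 libraries farthest from the median r was -0.61 and -0.39. Susd5 and the Dcpp genes had r from 0.49 to 0.61 in FL-HER2 and from -0.10 to 0.05 in p95HER2 tumors, none of which passed.

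Trpm3 moved with T cell genes among the p95HER2 day 22 libraries. The mean of Cd3e, Cd3g, Cd4, Cd8a and Cd2, the lymphoid list members that passed the filter, gave r = 0.90 and rho = 0.90 (n = 10, permutation adjusted p = 0.0160 and 0.0420 over 100 relations of members with marker lists, added after the data were seen). The p95HER2 libraries lowest in Trpm3, replicates 10 and 1 with 3.20 and 3.41 CPM, were also lowest in the sum of these 5 genes, at 3.57 and 2.42 CPM. Without the 2 libraries farthest from the median r was 0.90 and without skin-high libraries 0.88, and neither passed the adjustment (permutation adjusted p = 0.206 and 0.104). In FL-HER2 tumors r was 0.79 and rho 0.52 (n = 9, exact permutation adjusted p = 0.161 and 0.815), and r was 0.21 without the 2 farthest libraries, so the relation there rests on those samples.

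The change of these T cell genes with time is set beside that of Trpm3. In FL-HER2 tumors 4 of the 5 rose (median log2 change 1.70), with the co-receptor gene Cd8a at 1.87 CPM on day 10 and 12.3 CPM on day 22 (log2 change 2.81 ± 0.67, SE, limma adjusted p = 0.000665). In p95HER2 tumors 0 of 5 were called (median 0.46). Over all genes tested, 20.7% were called higher in FL-HER2 tumors, and 16.6% higher and 18.6% lower in p95HER2 tumors. The summed level of the whole lymphoid list was 4.85 to 17.5 CPM and 13.2 to 62.1 CPM in FL-HER2 tumors at day 10 and day 22, and 2.17 to 42.3 CPM and 3.61 to 34.1 CPM in p95HER2 tumors. The part of T cells in the Trpm3 level was not tested.

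Among the same 100 relations, Susd5 and the Schwann cell and nerve list passed by rank in p95HER2 day 22 tumors (rho = 0.90, permutation adjusted p = 0.0420) but not by Pearson's r (0.83, permutation adjusted p = 0.161). That r was 0.68 without the 2 farthest libraries, and it was 0.50 in FL-HER2 tumors. Trpm3 had r = -0.83 in FL-HER2 and -0.79 in p95HER2 tumors with adipocyte genes, neither of which passed (permutation adjusted p = 0.161 for both), and -0.79 and -0.75 without the 2 farthest libraries. At day 22 the summed level of the Schwann cell and nerve list was 40.03 to 55.4 CPM in FL-HER2 and 29.1 to 44.3 CPM in p95HER2 tumors, and that of adipocyte genes 33.6 to 219 CPM and 33.7 to 206 CPM. The part of these tissues in the members' levels was not tested.

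**Figure D4:**
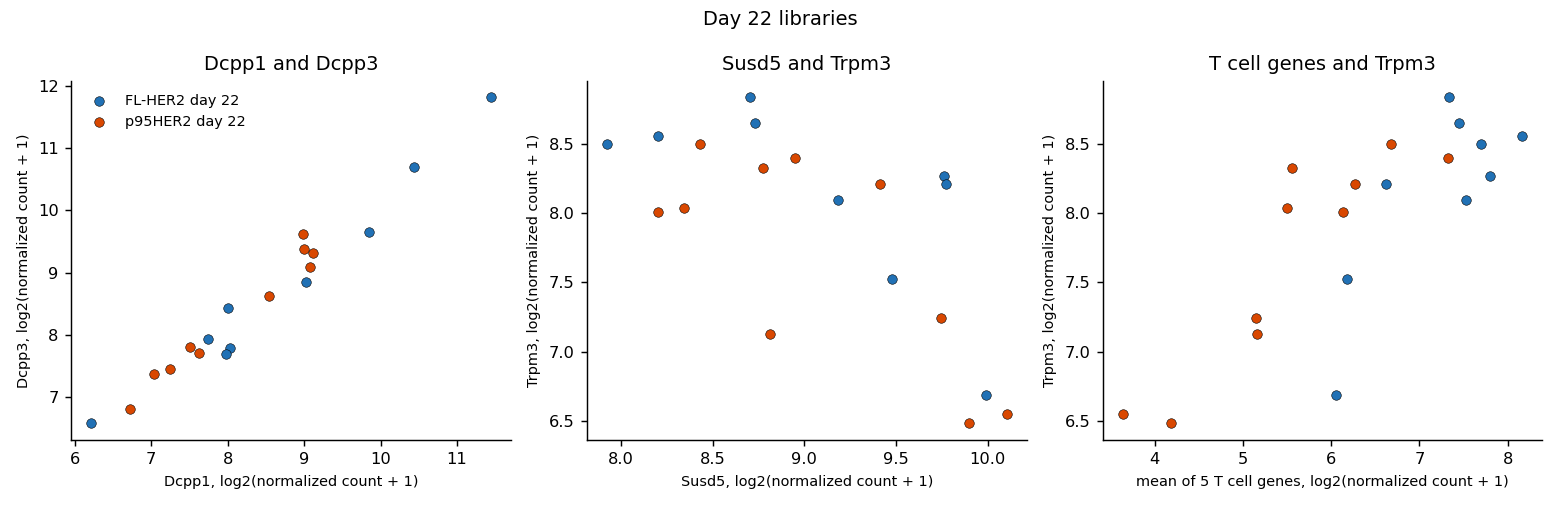
Day 22 libraries of FL-HER2 (blue, n = 9) and p95HER2 tumors (orange, n = 10), each axis in log2(normalized count + 1). Dcpp3 rises with Dcpp1 (left, r = 0.983 in both), Trpm3 tends to be lower where Susd5 is higher (middle, not passing the adjusted test), and Trpm3 rises with the mean of 5 T cell genes in p95HER2 tumors (right, r = 0.903).

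The nearest genes on either side of the members were sought among genes of the table that matched the annotation by symbol. Genes without such a match may lie closer, and those found had levels of their own. The protease gene Prss32 lies 21097 bases before Dcpp1 and Prss30 52685 bases after Dcpp3. They stayed at mean levels of at most 0.00974 and 0.170 CPM in all 4 groups. Abhd17b, 453409 bases before Trpm3, and Klf9, 145816 bases after it, were at 47.0 to 52.9 CPM and 22.4 to 26.6 CPM. Fbxl2, an F-box protein gene 10949 bases from Susd5 on the opposite strand, was at 4.79 CPM on day 10 and 8.38 CPM on day 22 in FL-HER2 tumors, and at 5.20 and 9.65 CPM in p95HER2 tumors. It rose by 0.68 ± 0.10 and 0.82 ± 0.10 (log2, SE, limma adjusted p = 3.45e-07 and 7.41e-09). Klf9 fell by 0.39 ± 0.12 in FL-HER2 tumors (adjusted p = 0.00604) and Abhd17b by 0.22 ± 0.05 in p95HER2 tumors (adjusted p = 0.00114), both without being called in the other construct.

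No other tested TRPM or SUSD gene rose in both constructs. Of 7 further TRPM channel genes 4 were tested. In FL-HER2 tumors Trpm2, a channel opened by ADP-ribose, rose by 0.93 ± 0.31 and the magnesium channel gene Trpm6 fell by 0.67 ± 0.28 (log2, SE, limma adjusted p = 0.0106 and 0.0442), and in p95HER2 tumors only Trpm6 was called, at -1.04 ± 0.27 (adjusted p = 0.00250). Trpm4 and Trpm7 were called in neither. Trpm6 lost its call in FL-HER2 tumors under all 3 other scalings, with the muscle score as a covariate and without skin-high libraries, and Trpm2 lost its call in the last of these. Of 8 other TRP channel genes tested, 0 rose and 5 fell in FL-HER2 (median -0.41) and 0 rose and 4 fell in p95HER2 tumors (median -0.56), among them the osmosensitive channel gene Trpv4 at -0.45 ± 0.10 and -0.70 ± 0.09. For comparison, 30.6% and 18.6% of all genes fell and 20.7% and 16.6% rose. The fall of Mcoln1 in FL-HER2 tumors (-0.13 ± 0.05) lost its call under all 5 alternatives run for the lists (adjusted p up to 0.826), and that of Trpc1 under quantile normalization. In p95HER2 tumors Trpv2 lost its call on log2(CPM + 1) and Mcoln2 without skin-high libraries.

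All 5 other sushi domain genes tested (Susd1, Susd2, Susd3, Susd4 and Susd6) fell in FL-HER2 tumors (median -0.76) and 2 of them, Susd4 at -0.73 ± 0.16 and Susd6 at -0.23 ± 0.05, fell in p95HER2 tumors, beside the same 30.6% and 18.6% of all genes. In FL-HER2 tumors Susd3 lost its call without skin-high libraries, with the muscle score as a covariate, on log2(CPM + 1) and under quantile normalization (adjusted p up to 0.51), and Susd1 under quantile normalization, which left 3 of the 5. Of 9 tested genes with a Link module, 1 rose and 4 fell in FL-HER2 and 0 rose and 3 fell in p95HER2 tumors. Of all genes, 20.7% and 16.6% rose. Acan, the cartilage proteoglycan aggrecan, went from 17.7 to 1.57 CPM in FL-HER2 and from 9.99 to 1.38 CPM in p95HER2 tumors (log2 change -3.76 ± 0.29 and -2.90 ± 0.28). The hyaluronan receptor gene Cd44 and the hyaluronan-binding gene Tnfaip6 fell in both, and the matrix proteoglycan gene Vcan rose in FL-HER2 tumors. Among 6 tested genes of hyaluronan synthesis and breakdown, the synthase gene Has2 fell by 1.01 ± 0.18 and 1.89 ± 0.17 and the hyaluronidase gene Hyal1 rose by 0.36 ± 0.08 and 0.39 ± 0.08.

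Salivary gland genes were examined because the Dcpp proteins are known from that tissue. Of 21 genes on the list 16 were in the table and 6 were tested. Secreted products of the gland were mixed: Car6, Amy1, Azgp1 and Ltf passed the filter, while others were at or near 0. Bpifa2 and Smgc had no read in any day 22 library, and the mucin Muc19 did not exceed 0.0314 CPM in any of them. A count of 0 allows up to 0.138 CPM there (3 reads, counting error only). Bhlha15, a transcription factor of secretory cells that salivary acini share with other glands, rose from 0.877 to 2.72 CPM in FL-HER2 and from 0.382 to 2.78 CPM in p95HER2 tumors (log2 change 1.49 ± 0.41 and 3.08 ± 0.40). The secreted carbonic anhydrase gene Car6 rose by 1.83 ± 0.31 in p95HER2 tumors and had 0.73 ± 0.32 in FL-HER2 tumors (limma adjusted p = 0.0577), where it was called under the 3 other scalings. Azgp1, a secreted zinc-binding glycoprotein gene, fell by 0.83 ± 0.19 and 1.16 ± 0.19 (limma adjusted p = 0.000449 and 4.45e-06), and the salivary amylase gene Amy1 by 1.18 ± 0.34 in FL-HER2 tumors (adjusted p = 0.00399). Counts were 1 higher and 2 lower of 6 in FL-HER2 and 3 higher and 1 lower in p95HER2 tumors. Of all genes, 20.7% were called higher and 30.6% lower in FL-HER2 tumors, and 16.6% and 18.6% in p95HER2 tumors. The water channel gene Aqp5, at 580 to 762 CPM in the group means, carried the list's summed level and rose by 0.33 ± 0.07 in p95HER2 tumors.

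Mammary secretory genes were mixed as well. Of 13 tested, 3 rose and 3 fell in FL-HER2 tumors, beside 20.7% and 30.6% of all genes. In p95HER2 tumors 5 rose and 2 fell, beside 16.6% and 18.6% of all genes. The casein gene Csn3 rose by 1.27 ± 0.24 and 1.72 ± 0.24, and Pigr, the receptor that carries antibodies into secretions, by 1.56 ± 0.29 and 2.0 ± 0.28 (log2, SE). The mucin gene Muc1 fell by 1.16 ± 0.15 and 1.02 ± 0.14. The other tested casein genes, Csn2 and Csn1s1, had negative changes. Csn2 had -3.57 and -2.05 (limma adjusted p = 7.11e-05 and 0.0193), and Csn1s1 -1.96 and -0.49 (adjusted p = 0.000116 and 0.361). Csn2 lost its call in p95HER2 tumors without skin-high libraries and on log2(CPM + 1).

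**Figure D5:**
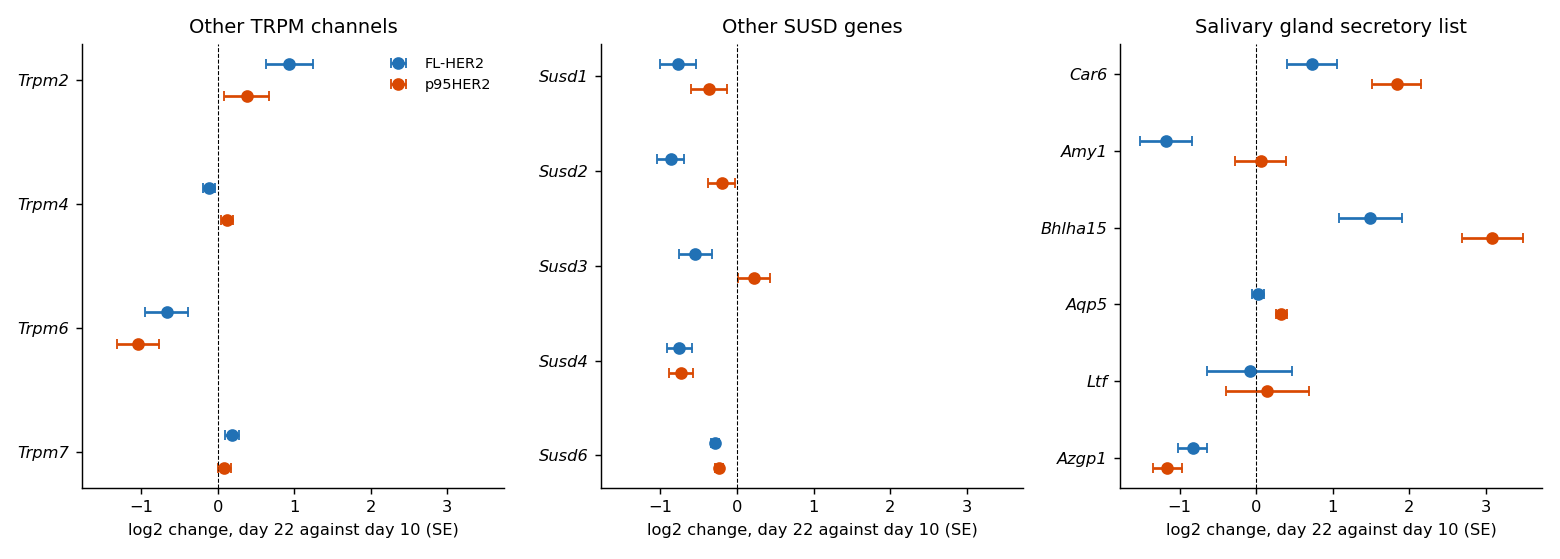
Log2 change from day 10 to day 22 (points, with SE) in FL-HER2 (blue) and p95HER2 tumors (orange) for the tested TRPM channel genes, SUSD genes and salivary gland list other than the members. Bhlha15 has the largest rise (1.49 and 3.08), and most SUSD genes lie below 0.

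Among genes other than the 5, those whose levels over all 39 libraries were most like each member were ranked by Pearson's r of the log2 values, as a description, since the libraries form a day 10 and a day 22 cluster. For Dcpp1 they were Rps6kl1 (r = 0.94), Socs2 (0.93) and Htr5b (0.93), for Dcpp2 Socs2 (0.91), Sgpp1 (0.90) and Rps6kl1 (0.90), and for Dcpp3 Socs2 (0.93), Krt23 (0.91) and Sgpp1 (0.91). Socs2 is an inhibitor of growth hormone and prolactin signaling, and its mean went from 37.5 to 69.3 CPM in FL-HER2 and from 41.2 to 70.7 CPM in p95HER2 tumors. Htr5b, a serotonin receptor gene, went from 3.32 to 21.9 CPM in FL-HER2 and from 3.89 to 15.6 CPM in p95HER2 tumors. Trpm3 was most like Insl6 (0.95), Slc9a3r1 (0.93) and Rab19 (0.92), and Susd5 most like Scarb1 (0.96), Krt23 (0.96) and Nol4l (0.95). Scarb1 encodes the receptor for high-density lipoprotein, and Krt23 is a keratin gene that went from 8.62 to 38.8 CPM and from 7.35 to 47.5 CPM.

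Within day 22, again among genes other than the 5, the lists were different. Over deviations from the group means in the 19 libraries, each Dcpp gene was most like Dcaf4 (r = 0.81 to 0.82). Trpm3 was most like Ripply1 (0.92), Strc (0.91) and Skap1 (0.91), an adaptor of T cell receptor signaling. Susd5 was most like Dlgap1 (0.92), Bnc1 (0.88) and Rtl3 (0.87). Next in order came Ndufb8 and Rpl27 for Dcpp1, Psmd8 and Igsf9b for Dcpp2, and Ndufb8 and Pop5 for Dcpp3 (r = 0.77 to 0.81).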

How the data were processed

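Poly(A) RNA of 39 PB2 tumors was sequenced in directional libraries, per the labels. The submitters' processing notes name STAR 2.4.2a, DESeq2 and the mm10 build. The sources used here give no counter, annotation or strand setting. The authors' deposited values are on a log2 scale, although the table is named CPM: as found from the values, they fit log2(read count / size factor + 1), and 100% of them came out as whole reads (tolerance 0.001 reads). The plan had assumed CPM. The deposited log2 values were kept, with their pseudocount of 1. Reads recovered from the steps gave CPM for levels and filters, and 1 CPM stands for at least 21.8 reads.

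Groups come from the labels. A model with 1 coefficient per group over 39 libraries was fitted to 13650 genes with limma 3.58.1 and its moderated two-sided test with a mean-variance trend (R 4.3.3), with Benjamini-Hochberg adjustment over all genes and a threshold of 0.05. On simulated counts of 13650 genes, it recovered 94% of log2 changes of 1 at day 10 and 88% at day 22, and 100% of changes of 2. Changes were set only in genes with a mean of at least 1 CPM, with 1 setting of spread for all. The Dcpp genes and Trpm3 had lower means at day 10. In FL-HER2 tumors at day 22 the SD of the Dcpp genes was 117% to 152% of the mean. These recovery values therefore do not measure power for the members. Correlations within day 22 groups used two-sided permutation tests, exact for 9 libraries or fewer (100000 resamples for 10). Promoters are from RefSeq, where all 5 genes matched by symbol, and exons from GENCODE M21 (Python 3.11.15, Biopython 1.88).

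The members and the gene lists were chosen with earlier results of these data known. All 5 members are named, with the 3 other genes (no member) most like each. Also named are the nearest neighbors among genes matched by symbol, and from lists up to 4 genes of smallest adjusted p. Predicted genes are left out. Genes named for a rank beside the members or an absence of reads, and those named to complete a count, were chosen after their values were seen. Alternatives were other pseudocounts, filters, scalings, weights, voom, covariates, a rank-sum test and left-out libraries. The skin score threshold of 7, the term for digits in column names and all alternatives for lists were added after seeing the data. Not all lists are reported here.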

Additional observations from a re-analysis of the deposited data

Results flagged for a closer look

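Trpm3 in p95HER2 day 10 replicate 5 stood apart from the other libraries of its group. It had no read there, a log2(normalized count + 1) value of 0.0, and the nearest library had 2.85. That gap was 0.592 of the whole range of the group. A count of 0 allows up to 0.0908 CPM in this library (3 reads, counting error only). The same library had no read of Dcpp3 and the lowest Susd5 level of its group, 1.30 CPM. It was the 1 such case among 20 groups of values examined (5 genes in 4 groups), and chance flags about 1 in 20 groups. Its cause was not tested.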

How the results depend on the processing

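No construct contrast of the 5 genes at day 10 or day 22 was called by limma or the rank-sum test under any alternative run (0 calls). The values that changed sign were imprecise, and not all were small. Dcpp2 at day 10 went from -0.14 to 1.11 ± 1.01 (SE) with a term for 5-digit column names. The genes stayed far higher at day 22 under every alternative, and the size of the log2 difference moved with the pseudocount. For Dcpp2 it was 6.74 in FL-HER2 and 6.9 in p95HER2 tumors with a pseudocount of 0.1, and 3.82 and 3.81 with 5. On the scale log2(CPM + 1), whose pseudocount stands for more than 20 reads, it was 3.71, 2.15, 3.76 and 2.83 in FL-HER2 and 3.1, 2.04, 3.24 and 2.55 in p95HER2 tumors for Dcpp1, Dcpp2, Dcpp3 and Trpm3. A filter at 5 CPM leaves out Dcpp2 and gave no value for it.

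Signs changed as follows. For p95HER2 against FL-HER2 at day 10, Dcpp1, Dcpp2 and Dcpp3 were 0.074, 0.013 and 0.14 under quantile normalization, 0.17, 1.11 and 0.60 with a term for 5-digit column names, and 0.39, 0.091 and 0.031 without libraries with a skin score of 6 or more. Dcpp1 and Dcpp2 were 0.22 and 0.11 without those at 7 or more. Dcpp3 was 0.024 on log2(CPM + 1), 0.11 with library weights and 0.096 as a difference of medians, and Susd5 was -0.49 with the muscle score as a covariate. At day 22, Dcpp2, Dcpp3 and Susd5 were 0.56, 0.031 and 0.11 without skin-high libraries at either threshold, Dcpp2 and Susd5 were 0.48 and 0.055 with library weights, Dcpp2 was 0.088 under quantile normalization, and Dcpp1 and Dcpp2 were 0.053 and 0.13 as a difference of medians.

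For the change between days, given without a test, Dcpp1 and Trpm3 were 0.41 and -0.32 with library weights, Dcpp2 and Trpm3 were -0.11 and -0.28 on log2(CPM + 1) and -0.013 and -0.088 with a pseudocount of 5, Trpm3 was -0.18 under quantile normalization, Dcpp3 was 0.000463 with a pseudocount of 0.1, and Dcpp2 was -0.038 with voom and -1.16 with the term for 5-digit column names. Dcpp3, Susd5 and Trpm3 were 0.049, 0.27 and -0.040 with the muscle score as a covariate. Susd5 was 0.066 without libraries with a skin score of 6 or more, and Dcpp3 and Susd5 were 0.38 and 0.046 without those at 7 or more. The causes were not tested.

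Leaving out each library in turn, the day 10 contrast ran from -0.29 to 0.057 for Dcpp2, -0.40 to 0.14 for Dcpp3 and -0.059 to 0.14 for Susd5, the day 22 contrast from -0.47 to 0.37 for Dcpp2 and -0.16 to 0.10 for Susd5, and the change between days from -0.33 to 0.51 for Dcpp2, -0.65 to 0.067 for Dcpp3, -0.20 to 0.059 for Susd5 and -0.26 to 0.28 for Trpm3.

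Among relations at day 22 in FL-HER2 tumors, leaving out the 2 farthest libraries gave r = 0.893 for Dcpp1 with Dcpp2, 0.035, 0.37 and 0.25 for Trpm3 with Dcpp1, Dcpp2 and Dcpp3, and -0.40 for Dcpp2 with Susd5, and in p95HER2 tumors -0.43 and -0.36 for Susd5 with Dcpp1 and Dcpp3. Without skin-high libraries Trpm3 had 0.10 and 0.0075 with Dcpp2 and Dcpp3 in FL-HER2 tumors.

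Some list counts moved by more than 1.5 times in FL-HER2 tumors. The calls over all genes moved as well, from 2830 higher and 4181 lower. They were 3456 and 3692 with median-of-ratios size factors, 4894 and 2954 on log2(CPM + 1) and 4974 and 2979 under quantile normalization. TRPM genes were 2 higher under the 3 other scalings and 0 lower under these, with the muscle score and without skin-high libraries. Other TRP genes were 1 higher with the muscle score and 3 lower under quantile normalization, which also gave 3 lower SUSD genes, 3 higher Link module genes and 5 higher mammary genes. Hyaluronan genes were 1 higher with the muscle score, and salivary genes 2 higher under the 3 other scalings. In p95HER2 tumors mammary genes were 1 lower without skin-high libraries and on log2(CPM + 1), and lymphoid genes 1 higher under quantile normalization. Calls over all genes there moved from 2262 higher and 2537 lower. They were 3332 and 1850 on log2(CPM + 1) and 2654 and 2096 under quantile normalization. No called gene of these lists changed sign. Depth limits the day 10 values, where Dcpp genes had at most 35 reads. No paired analysis was possible because the tumor numbers are not shared between groups and the replicate numbers follow the order of the records.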

Other observations

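Other genes close to the 5 in the ranking by change with time, chosen after their values were seen, had higher levels at day 22 too. Gjc3, a connexin gene of myelinating glia, was at 0.434 and 8.27 CPM in FL-HER2 tumors at day 10 and day 22 and at 0.262 and 4.14 CPM in p95HER2 tumors. It was called lower in p95HER2 at both days (log2 change -0.76 ± 0.27 at day 10 and -1.05 ± 0.28 at day 22, limma adjusted p = 0.0242 and 0.0240). Strc, which encodes stereocilin of inner ear hair cells, was at 0.701 and 7.06 CPM in FL-HER2 and at 0.824 and 4.74 CPM in p95HER2 tumors. Hpse2, a heparanase homolog gene, was at 0.234 and 2.11 CPM and at 0.199 and 2.56 CPM. The matricellular protein gene Sparcl1 was far higher than these, at 92.0 and 665 CPM in FL-HER2 and at 126 and 808 CPM in p95HER2 tumors.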
